A study of Mus musculus with 10 samples.

Results

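The 5 livers described here came from mice with a floxed Me1 gene (genotype Me1 flox/flox, called Flox 1 to Flox 5) that had eaten a high-fat diet for 16 weeks. They are 5 of the 10 livers of the series, chosen by their genotype label, and each has its own column of estimated counts and of FPKM (fragments scaled to gene length and sequencing depth). A floxed allele carries recombination sites around part of the gene and is used as the control for a knockout. All mice of the series ate the same diet. The labels used here give no sex, age, litter, time of day or feeding state, so the livers were treated as 5 separate mice. The spread between them holds any difference in age, litter, time of day or feeding state. Sex is described below from Y chromosome genes. Me1, which makes the cytosolic malic enzyme that supplies NADPH for fat synthesis, measured 208 CPM in Flox 1, 149 CPM in Flox 2, 153 CPM in Flox 3, 133 CPM in Flox 4 and 151 CPM in Flox 5. Only Flox 1 stood away from the other livers for Me1, and the SD of its log2 level was 0.24 over 5 livers and 0.09 without Flox 1.

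The liver is mostly hepatocytes by mass, cells that secrete plasma proteins, burn and make fat, make glucose in fasting and clear drugs and bile acids. Kupffer cells, sinusoidal endothelial cells, stellate cells and bile duct cells make up the rest. Many liver genes follow feeding, the daily clock, sex hormones acting through growth hormone, and stress, so a group of livers kept under 1 label can still hold several states.

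Total estimated counts ran between 52790000 and 60765120 per liver, so 1 CPM (a count scaled to library size with TMM factors) stood for between 52.0 and 60.4 counts. Between 22335 and 23187 of the 31218 genes in the table had a count in a given liver. A count of 0 allows up to 3 counts, which is at most 0.0578 CPM. The mitochondrial chromosome took 6.18% ± 0.60 of counts (SD, n = 5). Its share was 7.05%, 5.81%, 6.57%, 5.66% and 5.82% in Flox 1 to Flox 5. All 5 livers expressed Y chromosome genes (Ddx3y, Eif2s3y, Uty and Kdm5d summed to between 111 and 124 CPM). Xist, which silences an X chromosome in females, reached at most 2.95 CPM. By these genes all 5 mice were male. No pair of libraries agreed within sampling noise: the chi-square per degree of freedom over genes was at least 43.7 in all 10 pairs.

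One feature separated libraries before any liver gene was considered. Flox 3, Flox 4 and Flox 5 held transcripts of heart muscle that were at or near 0 in Flox 1 and Flox 2. Myh6, the alpha myosin heavy chain of heart, measured 0.140, 0, 19.9, 34.3 and 41.9 CPM in Flox 1 to Flox 5. Mb, the oxygen store myoglobin, was at 0 in Flox 1 and Flox 2 and at 14.7, 19.6 and 22.1 CPM in the other 3 livers. Tnnt2, cardiac troponin T, measured 0.350 and 0.547 CPM in Flox 1 and Flox 2 and 12.1, 18.8 and 15.6 CPM in Flox 3 to Flox 5. The 20 heart muscle genes, a list drawn up after these values were seen, summed to 38.7, 38.7, 169, 223 and 215 CPM in Flox 1 to Flox 5. Most of the sum in Flox 1 and Flox 2 was Csrp3, a muscle LIM protein that was at 32.4 to 43.0 CPM in all livers. Of the list, 16 genes passed a mean of 1 CPM, and 14 of these were at least 4-fold apart (2.38% of all genes were). Their median SD was 2.13, or 1.27 with a pseudocount of 2. Members such as Mb passed through Flox 3 to Flox 5 only, and the list was picked by its values. A wide spread was therefore built in, and these figures only describe the list. In bulk tissue, fewer cells of a type and less RNA per cell cannot be told apart, here or for any cell marker below. How these transcripts came into 3 libraries was not tested.

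Albumin was the most abundant transcript per length in every liver. Alb, the main plasma protein, measured 26419 FPKM in Flox 1, 22977 FPKM in Flox 2, 25082 FPKM in Flox 3, 23315 FPKM in Flox 4 and 21505 FPKM in Flox 5, a mean of 23860 ± 1915 FPKM (SD, n = 5). The mitochondrially encoded mt-Co1, a subunit of cytochrome c oxidase, was second in every liver at 12690 ± 1330 FPKM. Apoe, the ligand by which remnant lipoproteins are taken up, averaged 7713 ± 533 FPKM and ranked between 3 and 6. In all, 10323 genes had a mean of at least 1 FPKM, 394 of at least 100 and 67 of at least 1000. The 10 highest genes of a liver held 21.9% ± 0.43 of its summed FPKM, and the 100 highest held 61.2% ± 1.39.

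The 20 highest genes came from few groups. Among them were 7 mitochondrially encoded genes, 3 apolipoproteins (Apoe, Apoa2 and Apoa1), 3 major urinary proteins (Mup17, Mup12 and Mup7), albumin and Fabp1, the liver fatty acid carrier. The other 5 carry predicted names. Gm10925, Gm28437, Gm29216 and Gm28661 are unprocessed pseudogenes on chromosome 1, and CT010467 is annotated as a ribosomal RNA. The sources do not say how their reads were told apart from near-identical copies. CT010467 measured 4390, 8253, 4268, 8307 and 6976 FPKM in Flox 1 to Flox 5. It was thus low in Flox 1 and Flox 3, the livers also low in male-biased genes below, and any link was not tested. Of these 20 genes, 12 were among the 20 highest in every liver, and 92 genes were among the 100 highest in every liver. Mup7 ranked 73rd in Flox 1, 26th in Flox 2, 52nd in Flox 3, 7th in Flox 4 and 5th in Flox 5.

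**Figure D1:**
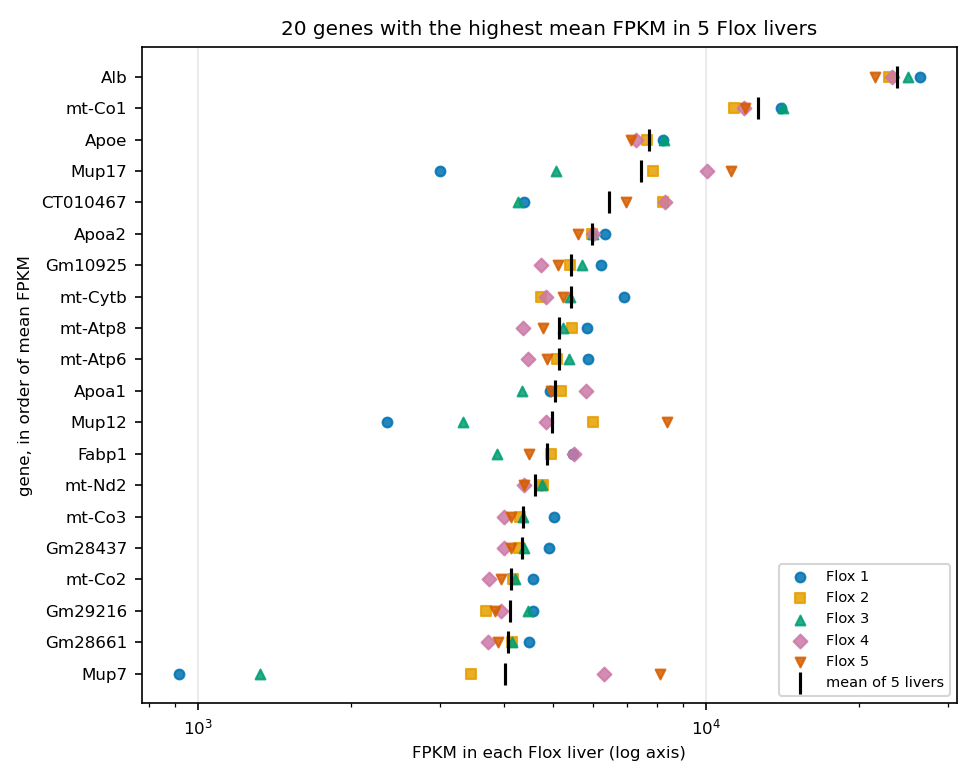
The 20 genes with the highest mean FPKM in 5 Flox livers, in order of their mean (vertical bars), with each liver as 1 point on a log axis. Most genes sit within a narrow band, while Mup17, Mup12 and Mup7 spread widely with Flox 1 lowest, Mup7 between 915 and 8129 FPKM.

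Below these, secreted proteins and enzymes of lipid and drug metabolism filled the ranking. Of the 20 listed plasma proteins, 13 had a mean of at least 1000 FPKM, and the list's median was 1578 FPKM. Serpina3k, a protease inhibitor, averaged 3696 ± 710 FPKM and Serpina1c, an alpha-1-antitrypsin, 3639 ± 595 FPKM. Ttr, which carries thyroid hormone, averaged 3439 ± 284 FPKM and Trf, the iron carrier, 3164 ± 151 FPKM.

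Cyp2e1, a pericentral P450 that oxidises ethanol and ketones, led the 105 P450 genes at 3636 ± 327 FPKM. It was followed by 2 fatty acid omega-hydroxylases that PPAR-alpha drives, Cyp4a14 at 1297 ± 113 FPKM and Cyp4a10 at 1044 ± 106 FPKM. The P450 genes together held 2.57% ± 0.10 of summed FPKM, the major urinary protein genes and pseudogenes 10.1% ± 4.4, the apolipoproteins 5.86% ± 0.39 and the mitochondrially encoded genes 14.4% ± 1.6. Thus the major urinary protein share spread most between livers. Scd1, which desaturates stearate, stood at 922 ± 379 FPKM. Slc27a2, a fatty acid carrier and acyl-CoA synthetase, was the highest of the Slc genes at 483 ± 16 FPKM.

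The labelled tissue was checked against its cell markers. All 23 hepatocyte markers passed a mean of 1 CPM, with a median of 286 FPKM. Medians over the passing markers were far lower for Kupffer cells (8.38 FPKM, 18 of 18 passing), sinusoidal endothelial cells (3.79 FPKM, 19 of 20), bile duct cells (3.66 FPKM, 10 of 18) and stellate cells and fibroblasts (1.61 FPKM, 21 of 21). Only 3 of 21 T and NK cell markers, 5 of 21 B and plasma cell markers and 3 of 14 neutrophil markers passed. Haemoglobin genes summed to 614, 255, 262, 280 and 466 CPM in Flox 1 to Flox 5, highest in Flox 1 and Flox 5.

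Most genes differed little between livers. Over the 13503 genes with a mean of at least 1 CPM, the SD between livers of log2(CPM + 0.5) had a median of 0.19, with 0.08 at the 10th and 0.48 at the 90th percentile. On this scale the highest liver was at least 2-fold the lowest for 1976 genes (14.6% of those considered), at least 4-fold for 322 (2.38%), at least 10-fold for 73, and less than 25% above the lowest for 3964 (29.4%). Counting error gave a median of 7.35% of a gene's variance between livers, and was the larger source for 663 genes. Spread was larger for low genes: the median SD was 0.27 for the 5742 genes between 1 and 10 CPM and 0.12 for the 1147 genes between 100 and 1000 CPM. Flox 1 was the most distant liver. The median absolute log2 difference from Flox 1 was between 0.21 and 0.23 in its 4 pairs, against 0.16 for Flox 4 with Flox 5. Along the first principal component (38.5% of the variance), the livers ran with Flox 1 at one end and Flox 4 and Flox 5 at the other, while the second (24.5%) set Flox 2 apart and the third (22.6%) Flox 3.

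**Figure D2:**
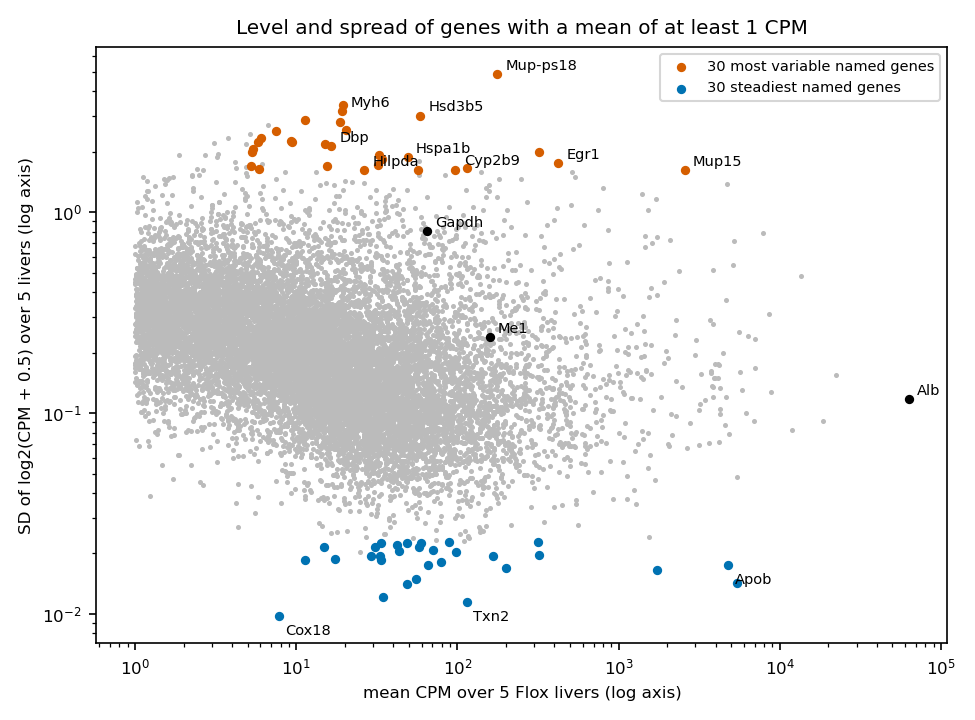
Mean CPM of each gene over 5 Flox livers against the SD of its log2(CPM + 0.5), both on log axes, for 13503 genes with a mean of at least 1 CPM; the 30 most variable and 30 steadiest named genes are coloured. The coloured genes lie above an SD of 1.62 and below 0.023. Me1 (0.24) and Alb (0.12) have SDs between these, with Alb at the far right at a mean of 63238 CPM.

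Apob, Ces1c and Txn2 were among the 30 steadiest named genes. Among 9260 genes with a mean of at least 5 CPM and a gene name that is not a predicted one, the 30 smallest SDs ran between 0.0097 and 0.023, and none of these 30 genes was more than 1.05-fold apart. Apob, the structural protein of very low density lipoprotein, measured 4760, 4806, 4871, 4817 and 4718 CPM in Flox 1 to Flox 5. Ces1c, a secreted carboxylesterase, lay between 1709 and 1762 CPM. Neither of these abundant genes is limited by counting, which gave 2.46% of the variance of Apob and 7.65% of that of Ces1c.

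For most of the rest the order says less. In 21 of the 30 the spread was no larger than counting alone gives, as for Cox18, which inserts a cytochrome oxidase subunit into the inner membrane (7.78 to 7.93 CPM), Txn2, the mitochondrial thioredoxin (114 to 116 CPM), and Rnf40, a ubiquitin ligase for histone H2B (34.5 to 35.1 CPM). Outside those 21 but among the 30 were Uba1, the main ubiquitin-activating enzyme (164 to 170 CPM), and Ube2d3, a ubiquitin-conjugating enzyme (198 to 204 CPM). So were Ak3, the mitochondrial GTP:AMP kinase (320 to 331 CPM), and Iqgap2, a hepatic scaffold protein (309 to 323 CPM). Counting gave 56.5% of the variance of Uba1, 62.1% for Ube2d3, 28.2% for Ak3 and 21.9% for Iqgap2. Scaling by total counts alone put the SDs of these 30 genes at up to 0.06.

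By list, the machinery of respiration and protein turnover was steadiest. The 35 nuclear genes of oxidative phosphorylation had a median SD of 0.08, and 33 were within 25% (29.4% of all genes were). Atp5b, the beta subunit of ATP synthase, measured 953, 898, 929, 912 and 951 CPM, and Ndufa2, a subunit of complex I with the widest spread of the list, lay between 22.7 and 29.4 CPM. Of 31 proteasome genes 27 were within 25%, as were 26 of 30 genes of transcription, translation and trafficking and 27 of 34 ribosomal protein genes. Small shared shifts remained: 25 of the 35 oxidative phosphorylation genes were highest in Flox 1 (24.3% of all genes were), and 22 of 31 proteasome genes and 24 of 34 ribosomal protein genes were highest in Flox 4 (17.1% of all genes were). The TCA cycle was within 25% for 13 of 20 genes, and fatty acid oxidation and ketogenesis for 22 of 34.

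Hepatocyte secretion and nitrogen metabolism were nearly as even. No plasma protein gene was 2-fold apart (14.6% of all genes were), and 13 of 20 were within 25% (29.4% of all genes were). Fga, the fibrinogen alpha chain, lay between 3866 and 4381 CPM, and Kng1, kininogen, between 1200.1 and 1285 CPM. Among 33 genes for amino acids, the urea cycle and folate-linked carbon transfer, 22 were within 25% (29.4% of all genes were). Of the same genes 3 were at least 2-fold apart, Tat, Asns and Phgdh (14.6% of all genes were). Tat, tyrosine aminotransferase, which glucocorticoids and fasting induce, measured 2937 CPM in Flox 1 and 2423 CPM in Flox 5 but 1054, 883 and 1396 CPM in Flox 2, Flox 3 and Flox 4.

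Genes in common use as references in quantitative PCR ranged between steady and variable. Polr2a, the largest subunit of RNA polymerase II, lay between 49.8 and 53.6 CPM and was 1.07-fold apart. Actb, cytoplasmic actin, was 1.55-fold apart and B2m, the light chain of class I MHC, 1.63-fold. Gapdh, a glycolytic enzyme, measured 50.5, 37.8, 114, 30.5 and 91.2 CPM in Flox 1 to Flox 5, so it was high in Flox 3 and Flox 5 and 3.70-fold apart. Of the 27 such genes measured, 12 were within 25% (29.4% of all genes were) and 2, Gapdh among them, at least 2-fold apart (14.6%). Their median SD was 0.15, against 0.19 over all genes.

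**Figure D3:**
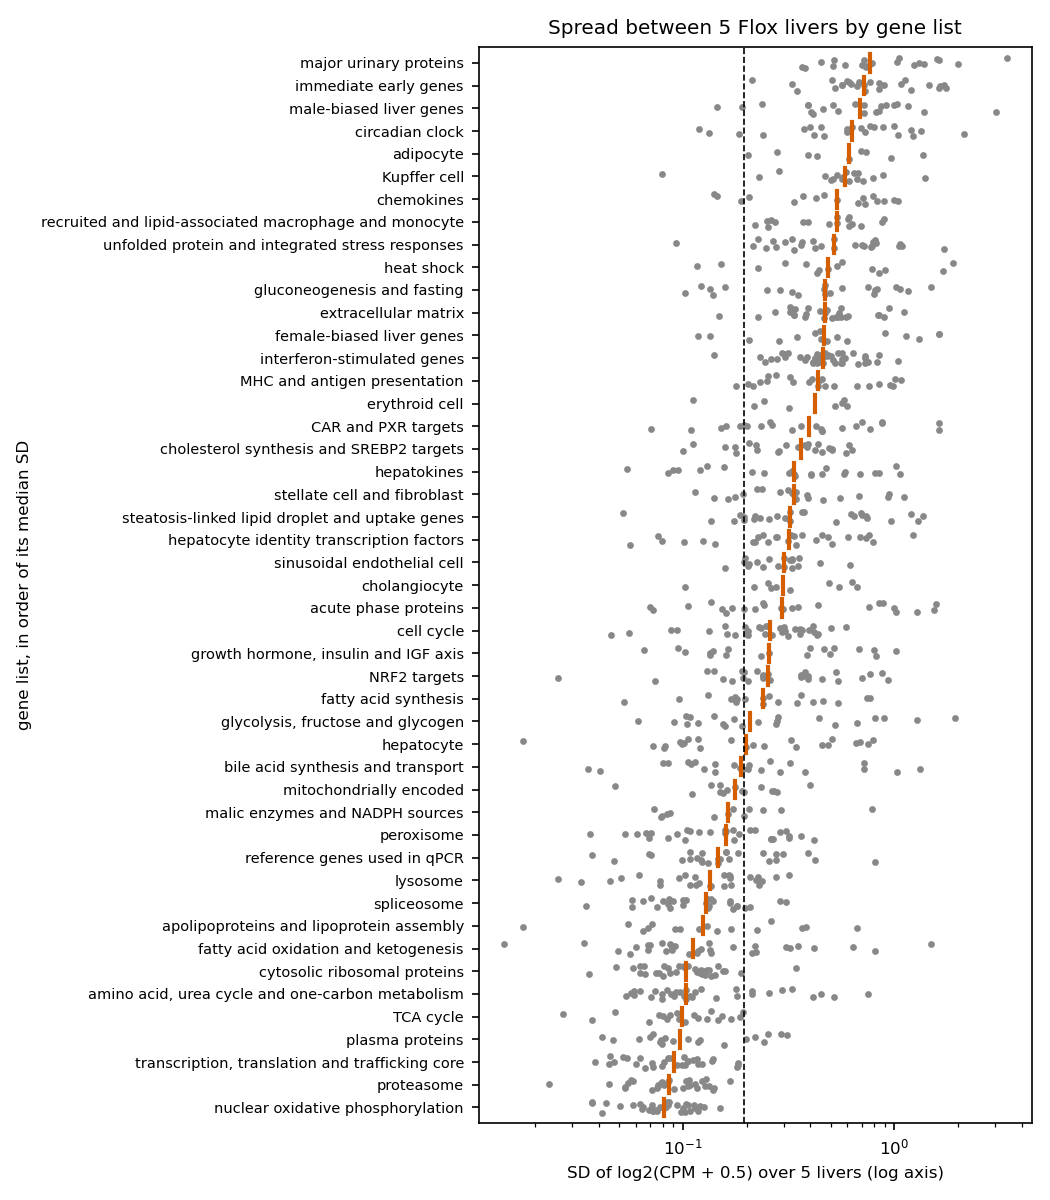
SD of log2(CPM + 0.5) over 5 Flox livers for each gene of each list (grey points, log axis), with the list's median (orange bar) and the median of all 13503 genes (dashed line, 0.19). The lists shown run downwards in order of their median, between major urinary proteins at 0.76 and nuclear oxidative phosphorylation at 0.08. Left out are lists with few passing genes and the pericentral and periportal hepatocyte lists. Lists drawn up after their values were seen, such as heart muscle (2.13), are also left out.

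Sex-dependent hepatocyte genes differed widely between livers. Growth hormone reaches the male mouse liver in pulses and the female liver more evenly, and through STAT5 the male pattern keeps genes such as Hsd3b5 and the major urinary proteins high and Cyp2b9 low. Of 22 male-biased genes that passed, 16 were at least 2-fold apart (14.6% of all genes were) and 9 at least 4-fold (2.38%), with a median SD of 0.68. Hsd3b5, a hepatic 3-ketosteroid reductase, measured 1.28 CPM in Flox 1, 32.1 CPM in Flox 2, 1.85 CPM in Flox 3, 115 CPM in Flox 4 and 143 CPM in Flox 5. It was thus low in Flox 1 and Flox 3 and high in Flox 4 and Flox 5, with Flox 2 between.

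The same livers were low for other male-biased genes. Slco1a1, an organic anion carrier, measured 67.6 and 90.7 CPM in Flox 1 and Flox 3 and 275, 283 and 299 CPM in Flox 2, Flox 4 and Flox 5. Serpina1e, an alpha-1-antitrypsin of male liver, measured 564, 1783, 598, 2848 and 2798 CPM in Flox 1 to Flox 5. Cyp7b1, an oxysterol hydroxylase, measured 80.6, 166, 74.7, 169 and 234 CPM. Of the 22 genes, 11 were lowest in Flox 1 and 8 in Flox 3 (27.4% and 17.0% of all genes were), and 16 were highest in Flox 5 (18.1%). Cyp1a2, a P450 that also follows the Ah receptor, differed little, at 161 to 199 CPM.

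Some female-biased P450s ran the other way in these livers. Cyp2b9 measured 212, 36.4, 193, 25.5 and 19.4 CPM in Flox 1 to Flox 5, and Cyp2a22 70.4, 13.4, 80.9, 22.8 and 11.3 CPM. Both were high in Flox 1 and Flox 3. Cyp2b13 was low throughout, at 7.17 and 4.89 CPM in Flox 1 and Flox 3 and at most 0.635 CPM in the other livers. Cyp4a10, also on the female-biased list, was lowest in Flox 3 and Flox 1, at 2246 and 2268 CPM against 2571 to 2796 CPM in the others. The mean log2 level of the 16 passing genes was 4.52 in Flox 1 and 4.46 in Flox 3. It was 3.72, 3.89 and 3.77 in Flox 2, Flox 4 and Flox 5. Single genes did not all follow this order: 7 were highest in Flox 3 and 2 in Flox 1 (20.5% and 24.3% of all genes were). Bcl6, a repressor of female-biased genes that growth hormone lowers, measured 18.3 CPM in Flox 1, 37.3 CPM in Flox 3 and 57.5 to 76.8 CPM in the other livers. The Y chromosome genes, at 111 to 124 CPM in sum, did not follow this order.

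Major urinary proteins are pheromone carriers made by male hepatocytes under growth hormone and testosterone. Genes and pseudogenes of the family summed to 22993, 44163, 27136, 65555 and 70524 CPM in Flox 1 to Flox 5, again low in Flox 1 and Flox 3. Of 21 genes 19 were at least 2-fold apart and 9 at least 4-fold (14.6% and 2.38% of all genes were). Mup7 measured 1092, 3932, 1506, 7436 and 9716 CPM. Single members are uncertain, because the copies are nearly identical and the division of shared reads is not given. Mup5 was listed at 97.5 CPM in Flox 4 and at 0 in the other 4 livers, and the pseudogene Mup-ps18 at 0 in Flox 1 and Flox 2, 21.5 CPM in Flox 3, 349 CPM in Flox 4 and 511 CPM in Flox 5. The sum of the family, in which shared reads are counted whichever copy they went to, was 3.07-fold apart.

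Several core clock genes placed Flox 4 apart from the other livers. In the daily cycle BMAL1 (Arntl) and its partners CLOCK or NPAS2 switch on Dbp, Tef and the Per genes through E-boxes, and the products of Dbp and Tef act on D-boxes. Dbp measured 1.80 CPM in Flox 1, 1.31 CPM in Flox 2, 13.0 CPM in Flox 3, 62.7 CPM in Flox 4 and 3.35 CPM in Flox 5. Arntl measured 4.79 CPM in Flox 4 against 20.6 to 26.2 CPM in the other 4 livers, and Npas2 0.558 CPM against 5.60 to 9.84 CPM. Per3 measured 15.5 CPM in Flox 4 and 1.70 to 3.64 CPM in the others, and Tef 131 CPM and 40.1 to 67.7 CPM. So Arntl and Npas2 were low and Dbp, Tef and Per3 high in that liver. Per1 did not share this: it was highest in Flox 1 at 72.3 CPM and lowest in Flox 2 at 15.5 CPM, with 33.4 CPM in Flox 4. Of 23 clock genes 18 were at least 2-fold apart and 8 at least 4-fold (14.6% and 2.38% of all genes were). The median SD was 0.63, and 0.40 without Flox 4. Of the 23, 8 were highest and 7 lowest in Flox 4 (17.1% and 19.7% of all genes were), and 12 were lowest in Flox 2 (18.4%). Nr1d1, which encodes the repressor REV-ERB alpha, was lowest in Flox 2 at 40.3 CPM, then 66.2 CPM in Flox 1 and 112 to 148 CPM in the others.

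The promoter of Per3 is shown because its 2 D-boxes are the binding letters of the factors made from Dbp and Tef. The sequence is RefSeq's for GRCm38.p6, minus strand, chr4:151044666-151044915, the 250 bases before the start, with each D-box (TTATGTAA) in capitals.
Per3: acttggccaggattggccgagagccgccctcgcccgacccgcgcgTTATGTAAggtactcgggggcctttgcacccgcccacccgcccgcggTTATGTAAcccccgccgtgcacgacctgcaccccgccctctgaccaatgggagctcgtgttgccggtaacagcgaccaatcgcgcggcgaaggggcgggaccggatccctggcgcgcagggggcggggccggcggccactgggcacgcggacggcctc
The D-boxes start 205 and 158 bases before the start site. In windows of this length, searched on both strands, 0.819% of 32851 RefSeq mouse promoters held these letters, and Per3 was the only one of 19 clock genes with a promoter entry that did. The E-box CACGTG was in 5 of the 19 and in 6.02% of all. Here and below, a gene was counted if any of its promoter entries matched, while the share of all promoters is per entry. A gene with several entries would have more chances to match, so the 2 shares are not in the same unit. No match printed here or below overlapped a match to another of the motifs searched. A match of letters is a description and does not show binding.

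Immediate early genes, which cells switch on within minutes of a stimulus or of tissue handling, were low together in Flox 2. All but 3 of 26 were at least 2-fold apart (14.6% of all genes were), 11 were at least 4-fold apart (2.38%), and 21 were lowest in Flox 2 (18.4% of all genes were). Egr1, a zinc finger factor, measured 131, 45.7, 638, 676 and 626 CPM in Flox 1 to Flox 5. Fos, a subunit of AP-1, measured 22.6, 7.84, 179, 50.0 and 27.0 CPM, highest in Flox 3. Btg2, an antiproliferative factor, measured 33.2 CPM in Flox 2, 495 CPM in Flox 3 and 223 to 249 CPM in the other 3 livers. Atf3, a stress-induced repressor, measured 41.5, 3.16, 84.9, 14.2 and 17.7 CPM. Without Flox 2 the SD of Egr1 was 1.15 in place of 1.76, and that of Btg2 0.53 in place of 1.46.

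Several fasting genes were also lowest in Flox 2. Pdk4, the kinase that blocks pyruvate oxidation in fasting, measured 794, 68.1, 789, 376 and 666 CPM in Flox 1 to Flox 5. Igfbp1, a secreted binding protein that insulin represses, measured 932, 194, 581, 816 and 1184 CPM. Pck1, the rate-limiting enzyme of gluconeogenesis, was only 1.58-fold apart, between 2771 and 4369 CPM.

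A pair of targeting subunits that bring protein phosphatase 1 to glycogen went opposite ways. Ppp1r3g, the one known to rise in fasting, measured 44.2, 1.72, 16.5, 60.8 and 38.7 CPM in Flox 1 to Flox 5. Ppp1r3c measured 21.5, 152, 24.2, 14.9 and 30.1 CPM. Flox 2 was the lowest liver for the first and the highest for the second. Of the 22 genes of gluconeogenesis and fasting 13 were at least 2-fold apart (14.6% of all genes were), 8 were lowest in Flox 2 (18.4%) and 14 were highest in Flox 1 (24.3% of all genes were).

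Flox 1 stood apart in lipid droplet genes. Droplet proteins of the CIDE and perilipin families coat and enlarge stored fat, and several are PPAR-gamma targets that rise in fatty liver. Of 27 such genes that passed, 21 were highest in Flox 1 (24.3% of all genes were), 11 were at least 2-fold apart (14.6%) and 4 at least 4-fold (2.38%). Cidea, which fuses droplets, measured 47.5 CPM in Flox 1 and 3.98 to 6.33 CPM in the other 4 livers. Plin4, a perilipin, measured 428 CPM in Flox 1 and 52.5 to 125 CPM in the others. Hilpda, a hypoxia-induced inhibitor of the lipase ATGL, measured 98.1 CPM in Flox 1 and 5.55 to 12 CPM in the others.

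The main droplet coat was less uneven. Plin2 measured 1893 CPM in Flox 1 and 1069 to 1472 CPM in the others, and Cideb, which loads lipid onto very low density lipoprotein, lay between 173 and 188 CPM in all 5. Among genes of fat synthesis, 8 of 19 were highest in Flox 1 and 8 in Flox 4 (24.3% and 17.1% of all genes were). Scd1 measured 8855 CPM in Flox 1 and 3504 to 5412 CPM in the others, and Srebf1, which encodes the lipogenic factor SREBP1, 181 CPM in Flox 1 and 52.1 to 102 CPM in the others. The 14 adipocyte markers, 5 of which are also on the lipid droplet list, summed to 2925, 1482, 1747, 1487 and 1872 CPM in Flox 1 to Flox 5. Most of that sum was Car3, a carbonic anhydrase that hepatocytes also make. Adipoq, the adipocyte hormone adiponectin, was at 0 in all 5 livers, and Cfd, adipsin, lay between 16.7 and 23.6 CPM.

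Metal and oxidant responses were highest in the same liver. Mt1 and Mt2, the zinc-binding metallothioneins, measured 418 and 259 CPM in Flox 1, against 39.1 and 18.3 CPM in Flox 2 and at most 135 and 72.2 CPM in the rest. Hmox1, which breaks down haem, measured 85.2 CPM in Flox 1 and 15.1 to 29.8 CPM in the others. Srxn1, sulfiredoxin, measured 173 CPM in Flox 1 and 45.3 to 60.6 CPM in the others. Of 29 NRF2 targets 22 were highest in Flox 1 (24.3% of all genes were) and 8 were at least 2-fold apart (14.6%). Gclm, a subunit of the enzyme that starts glutathione synthesis and a standard NRF2 target, was one of the steadiest at 136 to 142 CPM. Ppargc1a, the coactivator PGC-1 alpha, measured 39.8 CPM in Flox 1 and 4.81 to 7.98 CPM in the others. The list's median SD was 0.25, and 0.17 without Flox 1.

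Several regulators of hepatocyte identity were lowest in Flox 1. Tbx3, a T-box repressor, measured 6.47 CPM in Flox 1 and 40.2 to 48.9 CPM in the other 4 livers. Prox1, a homeobox factor, measured 51.2 CPM in Flox 1 and 127 to 160 CPM in the others. Foxa2, a pioneer factor, measured 4.42 CPM in Flox 1 and 8.66 to 19.1 CPM in the others. Of 28 such factors 19 were lowest in Flox 1 (27.4% of all genes were), and the median SD was 0.32 with Flox 1 and 0.16 without it. Hnf4a, the central factor of the network, had the opposite order, with 755 CPM in Flox 1 and 429 to 629 CPM in the others, and Esrra lay between 18.9 and 20.7 CPM.

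Cyp7a1, the rate-limiting enzyme of bile acid synthesis, was low in the same liver. It measured 24.4, 154, 157, 286 and 127 CPM in Flox 1 to Flox 5. Hsd3b7, a later enzyme of the pathway, lay between 524 and 560 CPM. Of the 24 bile acid genes 4 were at least 2-fold apart, a share near that of all genes (14.6%).

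Extracellular matrix genes were also mostly highest in Flox 1. Col1a1 and Col3a1, the fibrillar collagens of scar, measured 16.7 and 47.1 CPM in Flox 1, 2.30 and 10.7 CPM in Flox 2, 10.6 and 29.6 CPM in Flox 3, 3.81 and 10.6 CPM in Flox 4, and 12.3 and 13.8 CPM in Flox 5. Of 29 matrix genes that passed, 22 were highest in Flox 1 (24.3% of all genes were), 17 were lowest in Flox 2 (18.4%) and 17 were at least 2-fold apart (14.6%). Fn1, fibronectin, which hepatocytes also secrete into plasma, was steady at 1263 to 1612 CPM. Markers of stellate cells and fibroblasts summed to 683, 364, 534, 424 and 467 CPM and those of sinusoidal endothelial cells to 676, 453, 468, 466 and 503 CPM in Flox 1 to Flox 5. Both lists were thus also highest in Flox 1, and their part in the matrix result was not tested.

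**Figure D4:**
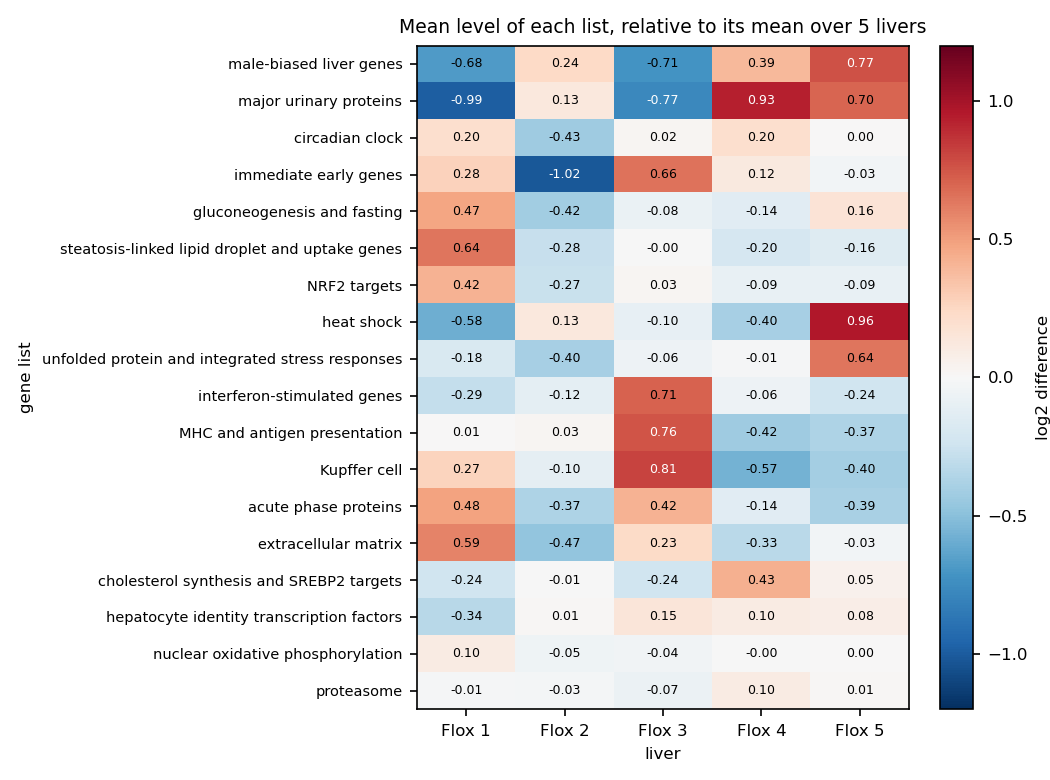
Mean log2(CPM + 0.5) of the passing genes of 18 lists in each Flox liver, minus the list's mean over the 5 livers (colour and printed value). Each liver has its own high or low lists, such as heat shock in Flox 5 (0.96), interferon-stimulated genes in Flox 3 (0.71) and immediate early genes in Flox 2 (-1.02), while oxidative phosphorylation and proteasome stay within 0.10 of 0.

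Chaperones of the cytosol and of the endoplasmic reticulum were high in Flox 5. HSF1 switches on the HSP70 genes when proteins misfold in the cytosol, and ATF6, XBP1 and PERK raise folding capacity in the endoplasmic reticulum. Of 15 heat shock genes 13 were highest in Flox 5 (18.1% of all genes were), 13 were lowest in Flox 1 (27.4%) and 10 were at least 2-fold apart (14.6%). Hspa1b, an inducible HSP70, measured 5.75, 41.2, 20.1, 8.82 and 170 CPM in Flox 1 to Flox 5. Hspa1a, its near-identical neighbour, measured 2.29, 12.5, 12.7, 2.64 and 47.2 CPM, and reads shared by the pair could be split between them. Hspa8, the constitutive HSP70, differed less, with 1944 CPM in Flox 5 and 727 to 1247 CPM in the others. Hspd1, the mitochondrial HSP60, lay between 401 and 488 CPM.

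Of 29 genes of the unfolded protein and integrated stress responses 19 were highest in Flox 5 (18.1% of all genes were). Hspa5, the main chaperone of the endoplasmic reticulum (BiP), measured 594, 611, 534, 552 and 2004 CPM in Flox 1 to Flox 5. Creld2, a folding factor of the same compartment, measured 153 CPM in Flox 5 and 28.5 to 30.5 CPM in the other 4 livers, and Hyou1, a large chaperone, 437 CPM and 127 to 138 CPM. The other 4 livers hardly differed for these genes, with SDs without Flox 5 of 0.09, 0.04 and 0.05. Herpud1, which helps degrade misfolded proteins, did differ among them: it measured 352, 172, 264, 455 and 1287 CPM in Flox 1 to Flox 5. Sesn2, a target of ATF4 in the integrated stress response, was steady at 12.3 to 14.6 CPM. Median SDs were 0.48 for heat shock and 0.52 for the other list, and 0.25 and 0.30 without Flox 5.

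The promoters of these genes carry the letters of the 2 pathways and are shown for that reason, from RefSeq for GRCm38.p6. Hspa1b (minus strand, chr17:34959239-34959488) and Hspa1a (minus strand, chr17:34972157-34972406) have a heat shock element (GAANNTTC) in capitals. Hspa5 (plus strand, chr2:34771840-34772089) and Creld2 (plus strand, chr15:88819396-88819645) have the ER stress element (CCAAT, 9 bases, CCACG) in capitals, which in Creld2 reads on the opposite strand.
Hspa1b: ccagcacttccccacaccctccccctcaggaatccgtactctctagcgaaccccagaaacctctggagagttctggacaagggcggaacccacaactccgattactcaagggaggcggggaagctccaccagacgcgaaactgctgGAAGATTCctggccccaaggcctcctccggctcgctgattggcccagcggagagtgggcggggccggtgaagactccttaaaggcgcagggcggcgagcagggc
Hspa1a: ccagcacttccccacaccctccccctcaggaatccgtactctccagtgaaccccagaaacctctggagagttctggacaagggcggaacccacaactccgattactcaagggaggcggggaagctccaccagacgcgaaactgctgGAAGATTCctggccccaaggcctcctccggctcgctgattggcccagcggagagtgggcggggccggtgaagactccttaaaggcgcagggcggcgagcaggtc
Hspa5: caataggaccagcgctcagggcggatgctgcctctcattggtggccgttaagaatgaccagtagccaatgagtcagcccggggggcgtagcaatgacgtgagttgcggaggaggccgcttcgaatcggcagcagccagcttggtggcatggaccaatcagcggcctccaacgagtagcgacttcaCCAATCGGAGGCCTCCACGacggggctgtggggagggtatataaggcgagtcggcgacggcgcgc
Creld2: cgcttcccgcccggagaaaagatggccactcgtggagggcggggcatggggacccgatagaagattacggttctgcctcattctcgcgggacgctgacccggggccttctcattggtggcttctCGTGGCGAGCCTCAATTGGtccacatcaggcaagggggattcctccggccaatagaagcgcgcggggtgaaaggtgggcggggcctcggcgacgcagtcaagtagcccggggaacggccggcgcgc
The 2 HSP70 windows matched at 247 of 250 bases, and the element starts 104 bases before the start in both. The ER stress element starts 65 bases before the start of Hspa5 and 126 before that of Creld2. In windows of 250 bases, 6.69% of 32851 promoters held a heat shock element and 0.113% an ER stress element. Of 11 heat shock genes with a promoter entry 6 held the first, and of 27 genes of the other list 5 held the second (Calr, Creld2, Hsp90b1, Hspa5 and Pdia6).

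Interferon-stimulated genes, class II antigen presentation and Kupffer cell markers were high in Flox 3. Interferon-gamma raises the guanylate-binding proteins, the immunity-related GTPases and MHC class II, and type I interferon raises genes such as Ifit1. Of 43 passing interferon-stimulated genes 41 were highest in Flox 3 (20.5% of all genes were) and 30 were at least 2-fold apart (14.6%). Igtp, an immunity-related GTPase, measured 34.0, 54.3, 146, 46.3 and 35.3 CPM in Flox 1 to Flox 5. Tgtp1, another of this family, measured 56.2 CPM in Flox 3 and 6.64 to 12.5 CPM in the others. Cxcl9, a chemokine for T cells, measured 19.7, 10.5, 44.4, 6.47 and 10.4 CPM. Ifit1 measured 48.4 CPM in Flox 3 and 18.3 to 30.1 CPM in the others. The list's median SD was 0.46, and 0.28 without Flox 3.

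Of 23 genes of MHC and antigen presentation 21 were highest in Flox 3 (20.5% of all genes were). H2-Ab1, a class II chain, measured 32.6, 31.2, 84.0, 11 and 18.2 CPM in Flox 1 to Flox 5, and Cd74, the invariant chain, 76.6, 69.7, 196, 33.4 and 47.9 CPM. Both were lowest in Flox 4 and Flox 5. Kupffer cell markers had the same order: Marco, a scavenger receptor, measured 17.8, 12.5, 38.6, 3.73 and 3.74 CPM, and Clec4f, a lectin of Kupffer cells, 81.8, 63.8, 120, 43.4 and 51.6 CPM. Of the 18 markers 16 were highest in Flox 3 and 14 lowest in Flox 4 (20.5% and 19.7% of all genes were), and their sum was 605, 495, 882, 418 and 423 CPM. Nr1h3, a marker that hepatocytes also express, lay between 75.3 and 85.9 CPM. Markers of recruited and lipid-associated macrophages summed to 361 CPM in Flox 3 and 231 to 264 CPM in the others. T and NK cell markers summed to 14.8 CPM in Flox 3 and 9.79 to 12.8 CPM in the others. The part of these cells in the interferon and class II results was not tested.

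A pair of promoters is shown for the response elements of this group, from RefSeq for GRCm38.p6. Igtp (plus strand, chr11:58199306-58199555) and Ifit1 (plus strand, chr19:34640639-34640888) have matches to the interferon-stimulated response element (TTTC, 2 bases, TTTC, or GAAA, 2 bases, GAAA on the opposite strand) in capitals.
Igtp: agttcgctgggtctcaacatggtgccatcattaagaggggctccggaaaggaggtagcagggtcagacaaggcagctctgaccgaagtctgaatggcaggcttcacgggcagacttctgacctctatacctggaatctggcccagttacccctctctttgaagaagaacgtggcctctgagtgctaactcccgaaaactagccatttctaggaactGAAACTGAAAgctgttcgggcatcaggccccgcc
Ifit1: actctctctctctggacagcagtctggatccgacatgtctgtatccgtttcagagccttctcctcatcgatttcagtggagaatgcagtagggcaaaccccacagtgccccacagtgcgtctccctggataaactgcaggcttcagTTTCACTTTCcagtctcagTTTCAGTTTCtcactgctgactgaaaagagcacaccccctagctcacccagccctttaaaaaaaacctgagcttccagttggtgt
The match in Igtp starts 34 bases before the start, and those in Ifit1 start 104 and 85 bases before it. Igtp also held 1 gamma-activated site (TTCNNNGAA), and Ifit1 none. Of 29 genes of the list with a promoter entry 18 held the first element and 7 the second, against 2.98% and 7.02% of 32851 promoters.

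Acute phase proteins were high in Flox 1 and Flox 3. Saa1 and Saa2, serum amyloid A, measured 62.7 and 42.2 CPM in Flox 1, 21.3 and 11.6 CPM in Flox 2, 57.9 and 39.0 CPM in Flox 3, 23.6 and 12.2 CPM in Flox 4, and 23.7 and 16.1 CPM in Flox 5. Orm2, an orosomucoid, measured 22.4 and 19.2 CPM in Flox 1 and Flox 3 and 5.45 to 5.58 CPM in the other 3. Of 24 genes 12 were highest in Flox 3 and 9 in Flox 1 (20.5% and 24.3% of all genes were), and 9 were at least 2-fold apart (14.6%). Hamp, hepcidin, the hormone that limits iron uptake, was highest in Flox 3 at 462 CPM and measured 94.7 to 200 CPM in the others. These 2 livers are also those low in male-biased genes. Levels on the list ranged widely around a median of 118 FPKM: Saa1 averaged 13.5 ± 7.4 FPKM and the steady Fga 1228 ± 88 FPKM (SD, n = 5).

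Cholesterol synthesis was highest in Flox 4. SREBP2 raises these genes together when sterol in the endoplasmic reticulum falls. Of 24 genes 17 were highest in Flox 4 (17.1% of all genes were), 11 lowest in Flox 1 (27.4%) and 8 lowest in Flox 3 (17.0%). Idi1, which isomerises isopentenyl pyrophosphate, measured 29.5, 50.1, 29.8, 86.3 and 46.8 CPM in Flox 1 to Flox 5. Sqle, squalene epoxidase, measured 19.5, 28.7, 21.9, 49.1 and 29.9 CPM. None of the 24 was 4-fold apart (2.38% of all genes were), and 11 were at least 2-fold apart (14.6%). This was also the liver with its clock genes apart from the others and the highest Cyp7a1.

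**Figure D5:**
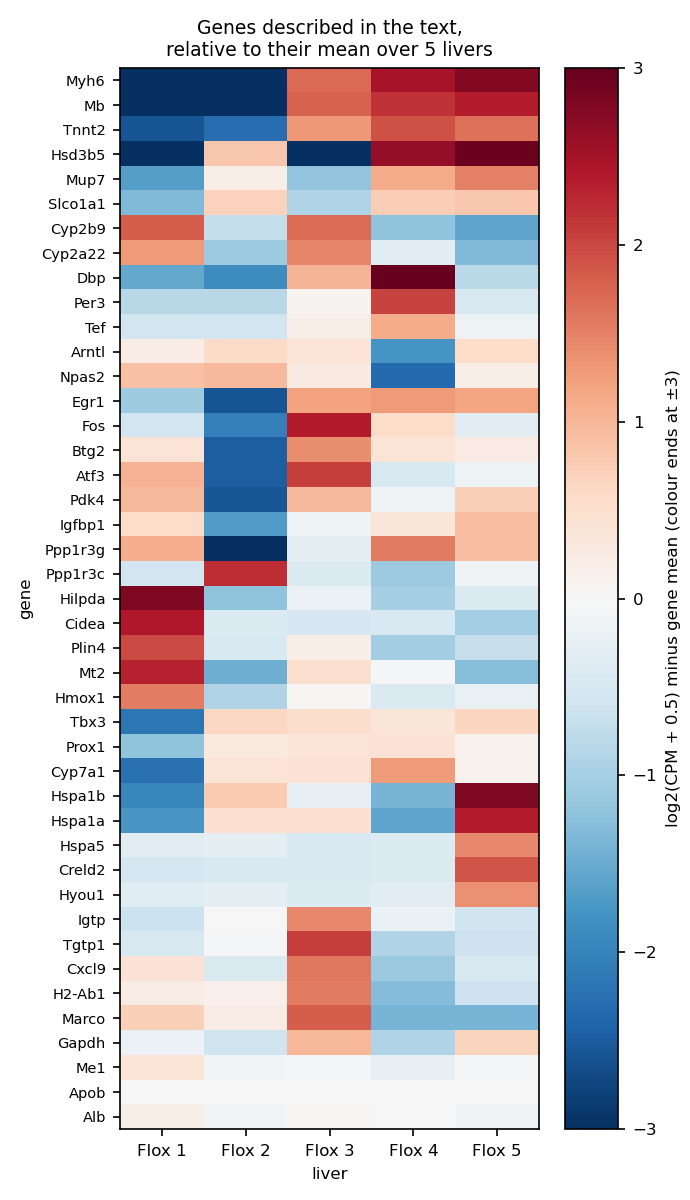
Log2(CPM + 0.5) of 43 genes described in the text in each Flox liver, minus the gene's mean over the 5 livers (colour ends at 3 in either direction). Heart genes split Flox 1 and Flox 2 from the rest, Hsd3b5 splits Flox 1 and Flox 3 from Flox 4 and Flox 5, and Apob shows no visible difference.

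For some of the most variable entries, the sum over overlapping entries was far steadier than the entry. Septin2, a cytoskeletal GTPase, occupies 2 overlapping entries: one lay between 1.03 and 31.0 CPM with Flox 4 and Flox 5 low, but the sum of both was 61.9, 60.9, 58.0, 53.1 and 59.9 CPM in Flox 1 to Flox 5, 1.16-fold apart. Zc3h11a, an RNA export factor, has an entry listed at 0 in Flox 3 and up to 45.5 CPM in Flox 2. The sum of its 2 entries was still 3.88-fold apart. With the overlapping predicted gene Gm38394, at a mean of 52.4 CPM, the sum was 1.23-fold apart. Of the 30 most variable named genes 5 overlap another entry on the same strand, as do 2566 of all 13503 genes considered. For Myh6, Myh7 and Hnrnpa3 the sum remained 84.8-fold, 25.7-fold and 11.1-fold apart. Hnrnpa3, an RNA-binding protein, measured 48.7, 56.4 and 56.3 CPM in Flox 1, Flox 2 and Flox 5 and 5.04 and 4.62 CPM in Flox 3 and Flox 4, and its overlapping entry Gm24574 reached at most 0.0192 CPM.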

How the data were processed

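Polyadenylated RNA of mouse liver was read as strand-marked 150-base pairs, per the labels' protocols. The deposited table, per the file headers, holds estimated counts (whole numbers) and FPKM for 31218 genes. Per the submitters' processing notes, the tools were edgeR, DESeq2, StringTie 2.1.6, HISAT2 2.2.1 and cutadapt 1.9, with no role given for any. No source used here gives the genome build, how shared reads were counted, or whether strand was used. The authors' FPKM ranked genes by level. For spread, estimated counts were scaled to CPM with TMM factors (edgeR 4.0.16, R 4.3.3) estimated in the 5 Flox livers, and the SD of log2(CPM + 0.5) and the ratio of the highest to the lowest liver (both plus 0.5 CPM) were taken over genes with a mean of at least 1 CPM. With 1 group no test between groups was made and no p-value is given; Dixon's gap ratio was used to mark single livers far from the rest. A list member whose symbol stands on several rows was described by its highest row. Named genes were Me1, the 20 highest by FPKM, the 30 largest and 30 smallest SDs at a mean of at least 5 CPM (predicted and clone names left out of the SD orders), and members of described lists; any other gene was chosen after its values were seen. The steps were tested on simulated data. The livers and lists described were chosen with earlier results of these data known. Counting intervals cover counting error only. Alternatives were DESeq2 size factors (DESeq2 1.42.0), total count scaling, the deposited FPKM, pseudocounts of 0.1 and 2, other level filters, leaving out each liver, and edgeR's dispersion for the order. Some items are not reported here.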

Additional observations from a re-analysis of the deposited data

Results flagged for a closer look

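For 113 named genes and the scores (mean log2 level of passing members) of 54 lists, the gap between the highest or lowest liver and its nearest neighbour was divided by the range over the 5 livers. Chance flags about 1 in 20 groups that were not picked by their values. Many of these genes were picked for their spread or after their values were seen, so that rate does not hold for them, and the ratios below only describe the livers. The ratio was above Dixon's limit for 15 genes and 4 list scores.

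In Flox 1 the gap was on the high side for Cidea (0.822), Hilpda (0.74), Ppargc1a (0.769), Srxn1 (0.783) and the adipocyte score (0.72). It was on the low side for Tbx3 (0.901), Prox1 (0.799), the pigment cell gene Dct (0.715) and the score of hepatocyte identity transcription factors (0.716).

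Flox 3 was high for the scores of interferon-stimulated genes (0.771) and chemokines (0.888), for Tgtp1 (0.711) and for Cish (0.932), a STAT5-induced inhibitor of cytokine signalling that measured 13.7 CPM there and 4.32 to 4.69 CPM in the other livers. Flox 4 was low for Arntl (0.853) and Npas2 (0.769). It was high for Txn2 (0.926), a gene whose 5 values lie within 1.02-fold. Flox 5 was high for Creld2 (0.961), Hyou1 (0.933) and Hspa5 (0.897).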

How the results depend on the processing

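Leaving out each liver in turn gave a median SD of 0.17 to 0.19, 217 to 279 genes at least 4-fold apart, 1298 to 1679 at least 2-fold apart and 4816 to 5689 within 25%; the 1298 was without Flox 1. It gave 10258 to 10341 genes of at least 1 FPKM, a share of 21.7% to 22.0% for the 10 highest genes and 60.8% to 61.6% for the 100 highest, and a counting share of 7.14% to 9.29%. A pseudocount of 2 left 178 genes 4-fold and 1063 genes 2-fold apart, and a mean of at least 10 CPM left 153 and 682. With no level filter 11501 genes were within 25%. The 10 highest genes held 24.1% among protein-coding genes, and 22.7% without mitochondrially encoded genes, where the 100 highest held 57.3%. Leaving out genes that overlap another on the strand, an alternative chosen after seeing the data, left 257 genes 4-fold apart. No paired analysis was possible because only 1 group was described. With 5 livers, single-liver differences rest on 1 sample each. Counting weighed more on low genes, with a median of 10.9% of the variance between 1 and 10 CPM and 1.11% between 100 and 1000 CPM.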

Other observations

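Pigment cell genes, a list drawn up after their values were seen, were lowest in Flox 1 for all 7 members that passed (27.4% of all genes were). They were highest in Flox 4 for 6 (17.1% of all genes were). The counts only describe a list picked by its values. Tyrp1, an enzyme of melanin synthesis, measured 29.4, 64.0, 64.4, 88.7 and 81.6 CPM in Flox 1 to Flox 5. Pmel, which forms the fibrils of melanosomes, measured 16.7, 35.6, 37.2, 53.1 and 40.6 CPM. The 8 genes in the table summed to 113, 229, 237, 314 and 273 CPM.

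Myelin genes, also listed after their values were seen, had another order. Of 6 that passed, 5 were highest in Flox 5 and 5 lowest in Flox 3 (18.1% and 17.0% of all genes were). Mbp, myelin basic protein, measured 18.9, 22.4, 13.0, 27.4 and 33.4 CPM in Flox 1 to Flox 5.

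Mfsd4a, a membrane carrier, took 2 levels, at 10.6 and 12.8 CPM in Flox 1 and Flox 2 and 0.768 to 1.05 CPM in the other 3 livers, the same split as the heart muscle genes.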
